A study of Mus musculus with 4 samples.

Results

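The 34 genes described here encode the granule proteins of neutrophils and the enzymes, secreted proteins, receptors and transcription factors that mark their maturation. They were taken by symbol from a fixed list, and all 34 were among the 32285 genes of the deposited tables. Their transcripts were counted in single leukocytes of CT26 tumours. CT26 is a colon carcinoma line of Balb/c origin, and the host mice were Balb/c animals 9 weeks old. The control group and the liproxstatin group had 2 libraries each. Liproxstatin-1, given for 8 days, blocks ferroptosis, the form of cell death driven by iron-dependent peroxidation of lipids. All libraries came from cells selected on CD45, a surface protein of leukocytes. The labels do not say what the control mice received, nor whether the replicates of a group were separate animals, so the p-values rest on a spread between libraries that may be technical.

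Neutrophils make their granule proteins in sequence while they mature in the bone marrow. Primary granules with myeloperoxidase and serine proteases come first, then secondary granules with lactoferrin and cathelicidin, then gelatinase granules, and the cell keeps the proteins after transcription of the gene has stopped. Mature cells in tissue can release granules, assemble the NADPH oxidase to make superoxide, and expel chromatin traps after PADI4 has citrullinated histones.

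Neutrophils were taken as cells with at least 1% of their UMIs (unique molecular identifiers, each counting 1 captured transcript) from S100a8 and S100a9 and fewer than 10 UMIs per 10000 from the complement genes C1qa, C1qb and C1qc. This gave 78 and 356 cells in control replicates 1 and 2, and 497 and 322 in liproxstatin replicates 1 and 2, 1253 of 25682 kept cells. Values for 4 libraries are given in this order throughout. Neutrophils held 323391 to 1909256 UMIs per library, with the fewest in control replicate 1, and a median of 2885 to 3822.5 UMIs per cell. Monocytes, gated on Csf1r, Ly6c2, Ccr2, F13a1 and Vcan, numbered 393, 582, 886 and 927. Of 29025 distinct barcodes 67 occurred in 2 or more libraries. The neutrophil label was checked mainly on genes the neutrophil gate did not use. The 6 neutrophil markers Csf3r, Cxcr2, Il1r2, Clec4d, Mmp9 and Msrb1 summed to between 6834 and 7761 CPM (UMIs of a gene per 1000000 UMIs of its class in a library) in gated neutrophils and to between 798 and 1004 CPM in monocytes. In 90.8% of gated cells the UMIs of Csf3r, Cxcr2 and Il1r2 added together came to 5 or more per 10000. In 28.5% of gated cells the UMIs of Csf1r, Ly6c2, Ccr2, F13a1 and Vcan added together came to 2 or more per 10000. By library that share was 37.2%, 27.0%, 31.6% and 23.3%. The 8 monocyte markers summed to 628, 684, 558 and 281 CPM in neutrophils, lower in both liproxstatin libraries, against 5702 to 6573 CPM in monocytes. They include Csf1r, Ly6c2, Ccr2, F13a1 and Vcan of the monocyte gate, so their high sum in monocytes was set by that gate and is no check. The 7 macrophage markers, which include the C1q genes limited by the gate, summed to 1119, 986, 810 and 726 CPM in neutrophils, lower in both liproxstatin libraries. The 5 T cell and 4 NK cell markers were highest in control replicate 2, at 250 and 350 CPM against at most 72.3 and 94.3 CPM in the other libraries. The mast cell and basophil markers were also highest there, at 43.3 CPM against at most 3.09 CPM. The eosinophil granule genes Epx and Prg2 were at 0 in all 4 libraries. At the edge of the gate, 69 cells with 0.5 to 1% of S100a8 and S100a9 UMIs had a median of 4.63 UMIs per 10000 for the 3 neutrophil receptors together, 93 cells with 1 to 2% had 10.9, and 1160 cells with 2% or more had 32.0.

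S100a8 and S100a9, the 2 subunits of calprotectin, lie 22.6 kb apart on chromosome 3 (GRCm38). Because the gate uses both, their neutrophil levels are a description. S100a9 stood at 66458, 82093, 71263 and 65697 CPM and S100a8 at 36031, 44827, 38121 and 29014 CPM. Together they made 10.2%, 12.7%, 10.9% and 9.47% of all neutrophil UMIs, and the groups overlapped. S100a9 gave 1.83 to 2.26 UMIs for each S100a8 UMI in neutrophils and 0.145 to 0.317 in monocytes, so the ratio of the 2 transcripts was on opposite sides of 1 in the classes.

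The other 32 genes made 3.54%, 3.47%, 3.76% and 3.52% of neutrophil UMIs, against 0.423% to 0.504% in monocytes, 0.365% to 0.408% in macrophages and 0.0851% to 0.0975% in T cells. Their order in neutrophils was led by G0s2, the stefin gene Cstdc4, Retnlg, Wfdc17, Hcar2, Mxd1 and Hdc, and the lowest were the primary granule genes Mpo, Elane and Ctsg. A UMI counts 1 transcript end whatever the transcript's length, so these levels can be set beside each other between genes, apart from differences in capture.

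**Figure D1:**
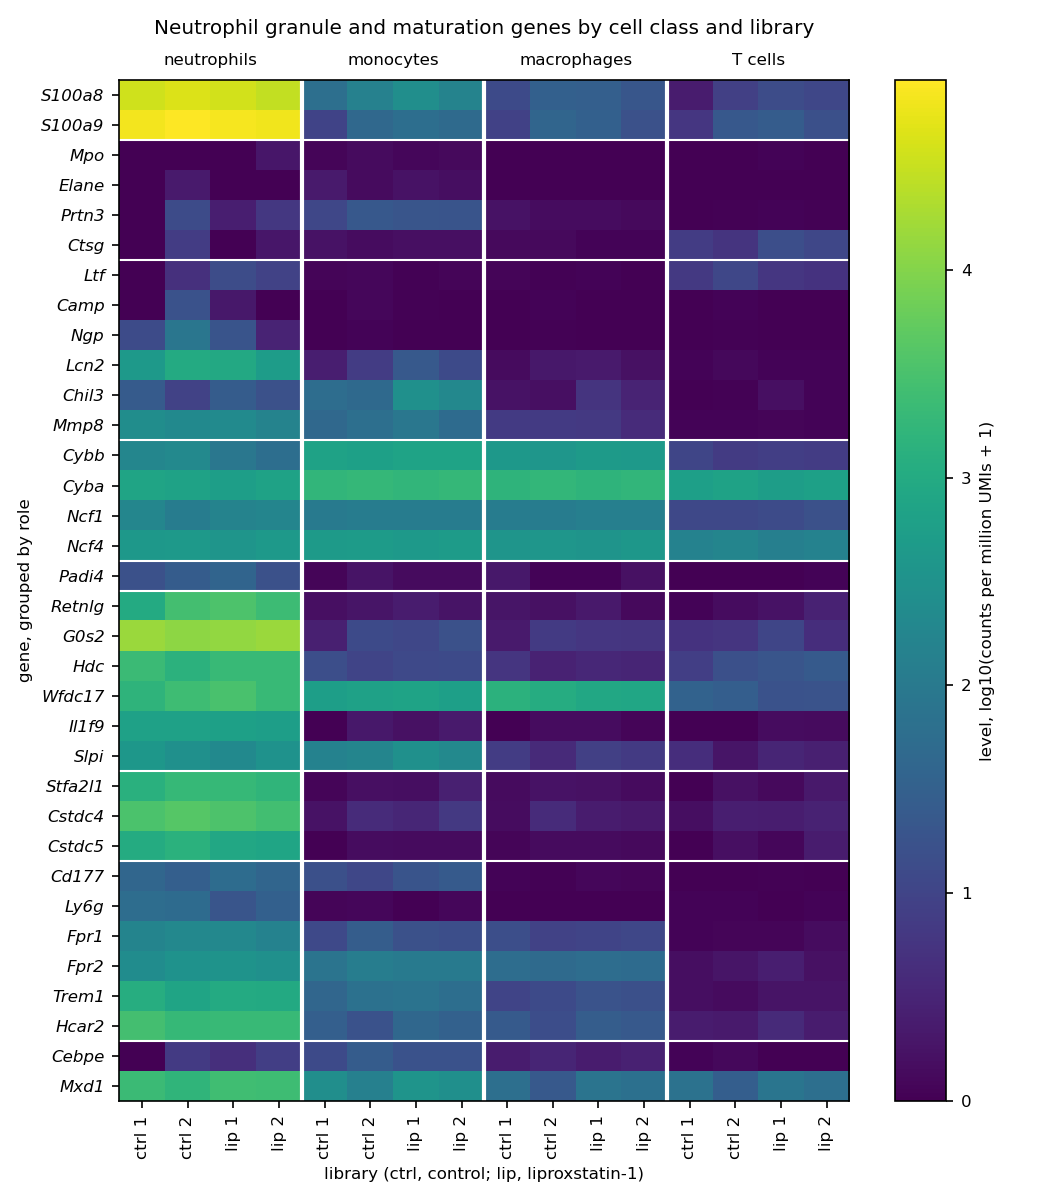
Level of each of the 34 genes (rows, grouped by role) in neutrophils, monocytes, macrophages and T cells of each library (columns), as log10 of CPM plus 1. G0s2, the stefins and Retnlg are bright in neutrophils alone, and S100a8 and S100a9 are far brighter there than in any other class. Cyba is bright in every class, Cybb and Wfdc17 also in monocytes and macrophages, and Mpo and Elane are dark in all 16 columns.

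The primary granule genes gave few UMIs in tumour neutrophils. Mpo, myeloperoxidase, gave 0, 0, 0 and 1 UMI in the 4 libraries, and Elane, neutrophil elastase, gave 0, 2, 0 and 0. Prtn3, proteinase 3, gave 0, 19, 3 and 5 UMIs, and Ctsg, cathepsin G, gave 0, 10, 0 and 1. A count of 0 allows a level of up to 9.28 CPM in control replicate 1 and up to 1.57 CPM in liproxstatin replicate 1, at 3 counts per library and for counting error only. At least 1 UMI of any of the 4 genes was found in 0, 10, 2 and 7 neutrophils, 1.52% of all gated cells. Prtn3 and Elane lie 3.07 kb apart on chromosome 10, and none of the 4 genes passed the low-count filter of the treatment test in neutrophils. Prtn3 was higher in monocytes, at 10.1, 21.2, 18.5 and 18.0 CPM against 0, 12.1, 1.57 and 5.13 CPM in neutrophils.

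Of the 6 secondary granule genes Lcn2 and Mmp8 stood above the other 4 in every library. Camp, cathelicidin, gave 0, 25, 2 and 0 UMIs and Ngp, neutrophilic granule protein, gave 4, 131, 34 and 2. In control replicate 2 a single cell with 14350 UMIs held 112 of the 131 Ngp UMIs and 21 of the 25 Camp UMIs, together with 690 Retnlg and 125 Lcn2 UMIs. Without that cell, control replicate 2 had 12.2 CPM of Ngp and 2.57 CPM of Camp, in place of 83.5 and 15.9 CPM. Ltf, lactoferrin, gave 0, 6, 25 and 8 UMIs, and Chil3, the chitinase-like protein Ym1, gave 8, 13, 50 and 15. In neutrophils Ltf stood at 0 to 13.1 CPM and in T cells of the same libraries at 4.24 to 9.98 CPM, so the classes overlapped. Lcn2, the siderophore-binding lipocalin 2, was at 458, 996, 913 and 509 CPM, high in 1 library of each group and low in the other. Mmp8, neutrophil collagenase, was at 250, 212, 225 and 154 CPM. Camp, Ngp and Ltf share a stretch of chromosome 9 in which 1170 kb separate the outer pair.

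The response of Lcn2 to liproxstatin-1 differed between neutrophils and monocytes in the interaction test described below. Chil3 had the largest fold change of the members in monocytes, though it did not pass there or in the interaction test. Ngp is a granule gene whose UMIs in 1 library came mostly from a single cell. Promoters are shown for these genes, Lcn2, Chil3 and Ngp. They are the 250 bases before the RefSeq start (GRCm38.p6), 5′ to 3′ on the strand of the gene, and capitals mark matches to TTGCNNAA, a form of the site bound by C/EBP factors, which drive granule genes.
Lcn2 (chr2:32387740-32387989, minus strand): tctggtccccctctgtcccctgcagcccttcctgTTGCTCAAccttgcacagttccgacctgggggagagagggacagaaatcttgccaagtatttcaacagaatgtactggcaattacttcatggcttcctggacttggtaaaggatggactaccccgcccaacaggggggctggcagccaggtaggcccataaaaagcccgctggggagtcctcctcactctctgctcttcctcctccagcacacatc
Chil3 (chr3:106167565-106167814, minus strand): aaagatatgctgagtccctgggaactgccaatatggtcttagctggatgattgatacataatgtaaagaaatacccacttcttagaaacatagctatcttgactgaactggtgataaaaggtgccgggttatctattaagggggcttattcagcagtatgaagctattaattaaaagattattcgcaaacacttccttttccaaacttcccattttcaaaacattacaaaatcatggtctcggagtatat
Ngp (chr9:110419558-110419807, plus strand): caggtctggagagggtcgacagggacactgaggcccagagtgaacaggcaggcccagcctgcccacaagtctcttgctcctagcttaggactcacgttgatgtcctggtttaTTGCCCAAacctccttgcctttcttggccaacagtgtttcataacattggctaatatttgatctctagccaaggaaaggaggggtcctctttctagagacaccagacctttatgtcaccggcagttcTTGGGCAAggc
The Lcn2 window held 1 match, the Ngp window 2 and the Chil3 window 0. RefSeq windows were found for 31 of the 34 genes (not for Cebpe, Hcar2 and Ncf4). On either strand, TTGCNNAA stood in the windows of 9 of them (Cstdc5, Lcn2, Ltf, Ly6g, Mmp8, Ngp, Retnlg, S100a9 and Slpi) and in 9.56% of all 32851 windows. The letters GAGGAAGT, a form of the PU.1 site, stood in those of 6 (Elane, Ly6g, Mmp8, Mpo, Prtn3 and S100a8) and in 2.44% of all windows, and TGTGGT, a RUNX form, in those of 7 and in 14.0% of all windows. The 3 motifs were picked after others had been tried, matches of different motifs can share bases, and a match is only a match of letters.

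The phagocyte NADPH oxidase was represented by its membrane pair Cybb (gp91phox, the catalytic subunit) and Cyba (p22phox) and by the cytosolic Ncf1 (p47phox) and Ncf4 (p40phox). In neutrophils Cyba was at 742, 680.5, 565 and 681 CPM and Ncf4 at 424, 456, 368 and 443 CPM. Ncf1 was at 179, 113, 157 and 169 CPM, and Cybb at 182, 206, 88.0 and 57.4 CPM. The control and liproxstatin libraries did not overlap for Cybb and overlapped for the other 3 genes. Of the partners in the complex, the GTPases Rac2 and Rac1 were at 421 to 572 and 325 to 421 CPM, and Cybc1 (EROS, a chaperone of gp91phox) at 24.1 to 43.1 CPM.

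The secreted and metabolic genes made 1.95% to 2.28% of neutrophil UMIs, the most of any group after calprotectin. G0s2, an inhibitor of the triglyceride lipase ATGL, was at 14902, 11749, 13256 and 14711 CPM. Retnlg, resistin-like gamma, was at 1014, 2852, 3457 and 2296 CPM, lowest in control replicate 1. Hdc, which makes histamine, was at 2230, 1447, 2076 and 2072 CPM. Wfdc17, a small secreted whey-acidic-protein gene, was at 1555, 2458, 3190 and 2050 CPM, and Il1f9, the cytokine IL-36 gamma, at 643, 652, 630 and 574 CPM. Slpi, an inhibitor of the granule proteases, was at 402, 297, 217 and 318 CPM. Padi4, the peptidylarginine deiminase of chromatin traps, was low at 15.5, 25.5, 37.2 and 15.4 CPM.

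The stefins are inhibitors of cysteine cathepsins, encoded in mouse by a cluster of near-identical copies. The 3 measured here lie on chromosome 16, Stfa2l1 and Cstdc4 22.3 kb apart and Cstdc5 a further 171 kb away, and their counts are uncertain where reads could be shared between copies. Cstdc4 was at 3309, 4121, 3417 and 2675 CPM, Stfa2l1 at 1333, 1991, 1922 and 1631 CPM, and Cstdc5 at 1054, 1404, 894 and 771 CPM. Cstdc5 was lower in both liproxstatin libraries than in both control libraries, and the other 2 overlapped. Of 7 further genes in the stefin list, Stfa2 was at 236 to 450 CPM, Cstdc6 at 55.7 to 72.0 CPM and Stfa3 at 12.4 to 111 CPM, and BC100530 was not among the listed genes.

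Among the surface receptors, Hcar2, the receptor for niacin and beta-hydroxybutyrate, was at 2764, 1934, 2038 and 2092 CPM. Trem1, an activating immunoglobulin-like receptor, was at 1150, 745, 994 and 977 CPM. The formyl peptide receptors Fpr2 and Fpr1, 3.88 kb apart on chromosome 17, were at 244 to 335 and 153 to 200 CPM. Cd177, a partner of surface proteinase 3, was at 40.2, 29.9, 52.9 and 39.0 CPM. Ly6g, the antigen by which mouse neutrophils are usually sorted, was at 55.7, 50.3, 18.3 and 30.8 CPM, lower in both liproxstatin libraries, from 18, 79, 35 and 30 UMIs. Mxd1, a MAX partner that represses MYC targets, was at 2208, 1636, 2505 and 2403 CPM, whereas Cebpe, the factor needed for secondary granules, gave 0, 9, 7 and 7 UMIs.

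Set against monocytes, 26 of the genes without a place in the gate could be tested, with the library as a block. Of these, 21 were higher in neutrophils by edgeR's quasi-likelihood test at an adjusted p under 0.05, where 28% of all 9804 tested genes were, and 5 were lower, where 41.2% of all were. Padi4, Retnlg, Stfa2l1, Cstdc5 and Ly6g were too low to be tested in monocytes alone and passed the low-count filter through neutrophils. They had to differ, and the count of 21 is a description. Cebpe and Prtn3 were too low to be tested in neutrophils alone and passed the filter through monocytes. They also had to differ, and the count of 5 is a description as well. Cstdc5 (12.00 ± 0.24 SE, n = 4 libraries), Retnlg (11.99 ± 0.20), Stfa2l1 (11.71 ± 0.32), G0s2 (11.12 ± 0.75), Cstdc4 (10.78 ± 0.59) and Il1f9 (10.16 ± 0.31) had the largest fitted log2 fold changes, neutrophils over monocytes. With so few monocyte UMIs these values are neither exact nor bounds, and no order is read from them. Retnlg counted 4, 9, 20 and 10 UMIs over all monocytes of a library and Cstdc5 0, 5, 6 and 5, and T cells of the same libraries held 1, 7, 13 and 37 Retnlg UMIs. Ly6g (8.44 ± 0.42), Hdc (8.03 ± 0.16), Lcn2 (6.87 ± 0.66), Hcar2 (6.86 ± 0.19) and Padi4 (6.31 ± 0.41) followed. Trem1 (4.63), Fpr1 (4.06), Mxd1 (3.76), Wfdc17 (2.47), Mmp8 (2.39), Fpr2 (2.20), Cd177 (1.97), Slpi (1.20), Ncf1 (1.06) and Ncf4 (0.47) were also called higher.

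The genes called lower in neutrophils were Chil3 (-2.48 ± 0.24), Cybb (-1.86 ± 0.41), Cebpe (-1.34 ± 0.35), Prtn3 (-1.15 ± 0.38) and Cyba (-0.82 ± 0.12). For Cebpe and Prtn3, which passed the low-count filter through monocytes, the call is a description. Cybb stood at 679, 619, 697 and 705 CPM in monocytes and at 414, 386, 481 and 433 CPM in macrophages, above neutrophils in every library. Cebpe was at 11.9, 26.1, 16.5 and 16.2 CPM in monocytes and at most 7.18 CPM in neutrophils. With library size as the only scaling the median of all genes was -1.07, a shift of 0.64 from TMM, and 1836 genes were called higher and 5922 lower in place of 2741 and 4043. Under it Ncf4 changed sign to -0.16 (adjusted p = 0.23, edgeR) and Slpi did not pass at 0.58 (adjusted p = 0.10, edgeR). Relative to the median of all genes the values were alike under both scalings, 0.90 and 0.91 for Ncf4 and -0.39 and -0.37 for Cyba. Prtn3 did not pass without control replicate 1, at -0.88, or without liproxstatin replicate 1, at -0.67, and Slpi did not pass without control replicate 2, at 1.11. With doublets kept, Chil3 (-1.54, adjusted p = 0.14, edgeR), Prtn3 (-0.09) and Cebpe (0.04) did not pass. With cells chosen by Csf3r, Cxcr2 and Il1r2, Slpi (0.04) and Ncf4 (0.23) did not.

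Other genes of neutrophil granules and maturation were counted in the same test, where 28% of all tested genes were higher and 41.2% lower. In the further granule list 10 of 13 tested genes were higher in neutrophils and 1 was lower. Olfm4 (11.61 ± 0.32), Pglyrp1 (5.47), Mmp9 (5.13), Lyst (4.71) and Mmp25 (3.56) were higher and Lyz2 (-2.21 ± 0.20) was lower. Of the maturation receptors 11 of 14 were higher, among them Cxcr2 (9.81), Csf3r (5.46) and Il1r2 (5.12), and Ltb4r1 (-0.42) was lower. Of the transcription factors 5 of 8 were higher, with Klf2 (2.97), Cebpd (2.92) and Cebpb (2.31) ahead, and Cebpa (-1.88) and Irf8 (-1.60) were lower. All 4 tested stefins were higher. Olfm4 and the stefins Stfa2, Stfa3 and Cstdc6 were too low to be tested in monocytes alone, so they had to differ. The counts that hold them are a description. Of the oxidase partners Rac2 (1.39) and Rac1 (0.29) were among those higher, with Cybc1 at 0.12 (adjusted p = 0.57, edgeR).

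With liproxstatin-1, 1 of the 26 tested genes changed in neutrophils by edgeR's quasi-likelihood test, where 0.289% of all 5890 tested genes did. That gene was Cybb, which was lower. The 26 genes had a median log2 fold change, liproxstatin over control, of 0.10, against -0.01 for all tested. Library size alone moved the median of all genes to -0.11, a shift of 0.10. In 6 of the 26 genes the CPM ranges of control and liproxstatin did not overlap, higher with the drug in Ltf and Mxd1 and lower in Cstdc5, Cybb, Il1f9 and Ly6g. Among all tested genes that share was 40.4%. In libraries summed over cells, a change in the mix of cells and a change of RNA per cell cannot be told apart.

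None of the abundant genes passed the test. The fold change on the log2 scale, with its SE over 2 libraries per group, was 0.16 ± 0.21 for G0s2, and Hdc was at 0.27 ± 0.23, Hcar2 at -0.09 ± 0.22 and Cstdc4 at -0.19 ± 0.22. Lcn2 was at 0.05 ± 0.46, Retnlg at 0.66 ± 0.57, Wfdc17 at 0.48 ± 0.27 and Mxd1 at 0.45 ± 0.22, the first 3 with the 2 controls far apart. Ly6g was at -1.05 ± 0.32 (adjusted p = 0.24, edgeR) and Cstdc5 at -0.48 ± 0.22 (adjusted p = 0.48, edgeR). Ngp was at -2.25 ± 1.06, a value in which the single cell of control replicate 2 holds 112 of that library's 131 UMIs. Ltf was at 1.92 ± 0.67, on 0, 6, 25 and 8 UMIs and with levels that overlapped those of T cells. Without control replicate 1, Ngp (-2.67), Chil3 (1.52), Cstdc5 (-0.63), Ly6g (-0.99) and Mxd1 (0.71) passed. Without control replicate 2, Retnlg (1.59) and Wfdc17 (0.84) passed, and without liproxstatin replicate 1, Ngp (-4.65) did. A lone library was then assumed to vary like those of the other group.

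**Figure D2:**
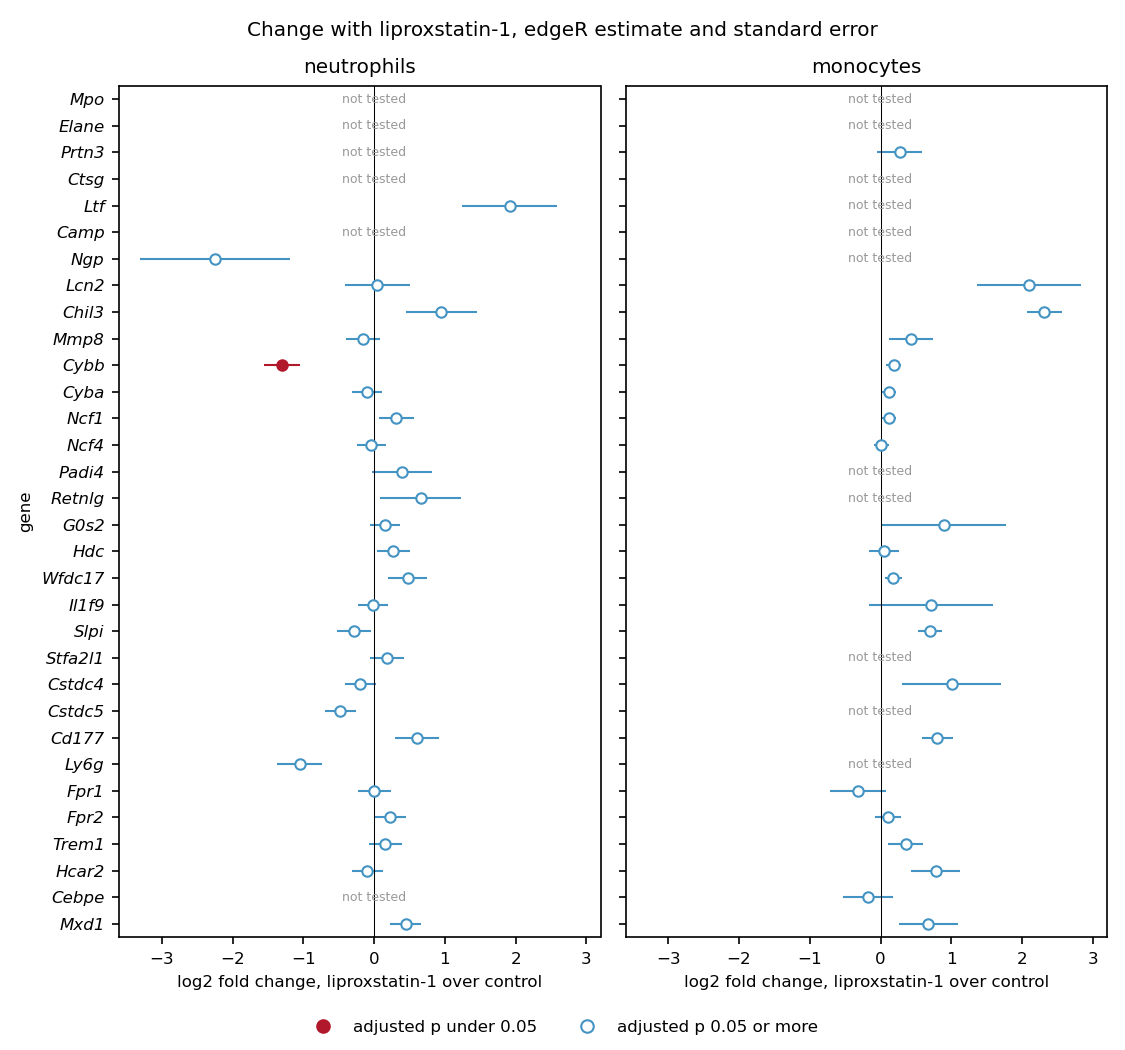
Log2 fold change with liproxstatin-1 (points, x axis) and its standard error (bars) for 32 genes in neutrophils (left) and monocytes (right), edgeR fits on 2 libraries per group; S100a8 and S100a9 are left out. Cybb in neutrophils, at -1.31, is the one filled point, and Chil3 and Lcn2 lie furthest to the right in monocytes.

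Cybb (ENSMUSG00000015340, chromosome X, 9435252 to 9487771, minus strand, GRCm38) fell by 1.31 on the log2 scale (SE 0.25, adjusted p = 0.043, edgeR), from 194 ± 16.5 CPM (SD) in control to 72.7 ± 21.6 CPM. The UMIs came from few cells: 14, 37, 47 and 22 neutrophils had any, and the 10 richest held 93.2%, 80.8%, 74.4% and 78.6% of them. Those 10 cells had a median of 4872, 14347.5, 6311.5 and 3806.5 UMIs, against 3822.5, 3814.5, 3618 and 2885 for all neutrophils. Their median for the monocyte genes Csf1r, Ly6c2, Ccr2, F13a1 and Vcan was 2.64, 18.9, 2.44 and 3.88 UMIs per 10000, so control replicate 2 stood apart from the other 3 libraries in both. Among neutrophils with fewer than 2 UMIs per 10000 of those genes Cybb was at 68.7, 26.9, 30.6 and 22.5 CPM, with the groups overlapping, and the fold change was -0.46 (adjusted p = 0.85, edgeR). Among the rest it was at 343, 559, 195 and 152 CPM. Thinned to 2000 UMIs per cell, 9.21%, 6.49%, 6.88% and 4.61% of neutrophils had a Cybb UMI, against 1.48% to 1.89% of T cells, which should lack it. By DESeq2 the adjusted p was 0.091. Over 16 alternatives the call held in 8, and it was also lost with cells chosen by Csf3r, Cxcr2 and Il1r2, at -0.01, with a gate of 0.5%, at -0.34, and without liproxstatin replicate 2, at -0.99. The remaining oxidase genes stood at -0.10 ± 0.21 (Cyba), 0.32 ± 0.25 (Ncf1) and -0.04 ± 0.21 (Ncf4), and of the 4 partners 0 were called by edgeR, 0 had an unadjusted p under 0.05 and 0 were called by DESeq2. Of 12 further granule genes, 13 maturation receptors, 4 stefins and 8 transcription factors that could be tested in neutrophils, edgeR called 0 and DESeq2 0, and 3 (1 granule gene, 1 receptor and 1 factor) had an unadjusted p under 0.05.

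In monocytes 0 of 21 tested genes changed with liproxstatin-1 by edgeR's quasi-likelihood test, where 0.0536% of all 11204 tested genes did, 3 had an unadjusted p under 0.05, and DESeq2 called Chil3 and Slpi. Of 13 further granule genes, 13 receptors, 1 stefin, 8 factors and 4 oxidase partners edgeR called 0 as well, with 2, 2, 0, 5 and 0 at an unadjusted p under 0.05, and DESeq2 called 1 receptor and 1 factor. The 21 member genes had a median log2 fold change of 0.36, against -0.01 for all tested. In 7 of them the ranges of control and liproxstatin did not overlap, all 7 higher with the drug (Cd177, Chil3, Cybb, Hcar2, Lcn2, Mxd1 and Slpi), where 43.6% of all tested genes did not overlap.

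Chil3 (ENSMUSG00000040809, chromosome 3, 106147554 to 106167564, minus strand) stood furthest from 0 in monocytes. It was at 55.6, 47.9, 296 and 193 CPM, so both liproxstatin libraries lay above both controls. The difference was 2.32 on the log2 scale with an SE of 0.25 and an adjusted p of 0.068 by edgeR. The fold change ran from 1.96 to 2.60 over 14 alternatives and passed in 7 of them, DESeq2, no filter, equal cell numbers and the stricter monocyte gate among them, and also without liproxstatin replicate 1 (1.96) or 2 (2.60). A Chil3 UMI was found in 23.9% and 18.9% of control monocytes and in 44.0% and 41.5% of liproxstatin monocytes, and after thinning to 2000 UMIs in 8.93%, 5.86%, 22.3% and 19.5%, against at most 0.156% of T cells. The 10 richest monocytes held 46.0%, 47.3%, 24.8% and 18.4% of its UMIs. Macrophages had 0.773, 0.598, 4.49 and 2.12 CPM, low levels that also did not overlap between the groups.

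Lcn2 (ENSMUSG00000026822, chromosome 2, 32384633 to 32388252, minus strand) was at 1.58, 6.34, 22.9 and 11.5 CPM in monocytes, from 11, 65, 336 and 140 UMIs. Its log2 fold change was 2.10 ± 0.74 (adjusted p = 0.55, edgeR). Its monocyte counts stood at 2.75 to 16.8 Lcn2 UMIs for each Retnlg UMI, where neutrophils gave 0.222 to 0.451, the monocyte ratios resting on only 4, 9, 20 and 10 Retnlg UMIs. After thinning, 0%, 1.03%, 3.16% and 1.41% of monocytes had a Lcn2 UMI, against at most 0.0987% of T cells. Slpi was at 148, 175, 288 and 208 CPM (0.69 ± 0.17, adjusted p = 0.26, edgeR) and Cd177 at 14.8, 10.1, 17.7 and 23.2 CPM (0.80 ± 0.22, adjusted p = 0.29, edgeR). Without control replicate 1, Hcar2 (1.30), Mxd1 (1.27), Cd177 (1.11), Fpr1 (-0.74) and Cebpe (-0.57) passed in monocytes, and without control replicate 2, G0s2 (2.95), Prtn3 (0.91) and Trem1 (0.76) did.

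The difference between the 2 responses was tested as an interaction of class and treatment with the library as a block. Of 28 tested genes 3 were called, all with a lower fold change in neutrophils than in monocytes, where 0.381% of all 10486 tested genes were called lower and 0.134% higher. For Lcn2 the difference, neutrophils minus monocytes, was -2.11 ± 0.29 (adjusted p = 2.08e-09, edgeR). It was called in all 17 alternatives, between -2.65 and -1.86. In neutrophils Lcn2 followed 1 high and 1 low library in each group, while in monocytes both liproxstatin libraries lay above both controls. Some other transcripts abundant in neutrophils also had higher group means in liproxstatin monocytes, and some did not. S100a8 was at 60.5, 143, 272 and 154 CPM there and S100a9 at 8.77, 44.7, 58.4 and 48.8 CPM, without overlap of the groups. G0s2 was at 1.72, 11.9, 10.3 and 15.7 CPM, Cstdc4 at 0.719, 3.02, 2.32 and 5.58 CPM and Stfa2l1 at 0.144, 0.585, 0.545 and 1.72 CPM, with overlap. Hdc had group means of 11.7 CPM in control and 11.4 CPM in liproxstatin monocytes, and Fpr1 of 18.9 and 14.7 CPM, with overlap. The part of neutrophil RNA in the Lcn2 difference was not tested. For Cybb the difference was -1.49 ± 0.27 (adjusted p = 1.74e-05, edgeR), and it was lost in 7 of the 17, among them the gate on Csf3r, Cxcr2 and Il1r2, at -0.18, and the fit without liproxstatin replicate 2, at -1.18. For Slpi (ENSMUSG00000017002, chromosome 2, 164354070 to 164389095, minus strand) it was -0.92 ± 0.24 (adjusted p = 0.034, edgeR), with 402, 297, 217 and 318 CPM in neutrophils, and it was lost in 11 of the 17, among them the fits that left out control replicate 1 (-0.63), liproxstatin replicate 1 (-0.45) or liproxstatin replicate 2 (-1.40). For Chil3 it was -1.43 ± 0.44 (adjusted p = 0.15, edgeR), on 8 to 50 neutrophil UMIs per library. Of the further granule genes Lyz2 (-0.99, adjusted p = 0.0076, edgeR) was called lower, and among class markers so were the macrophage gene Apoe (-1.19) and the mast cell gene Cpa3 (-4.84). Their part in the differences was not tested. Without control replicate 1 Hcar2 (-1.04) and without control replicate 2 G0s2 (-2.85) were also called. Hcar2 was called too with library size alone (-0.90), equal cells (-1.19) and monocyte genes removed (-1.06), and Cstdc4 with equal cells (-2.96) and monocyte genes removed (-1.45). With doublets kept, Chil3 (-2.44) and Prtn3 (-3.21) were called.

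**Figure D3:**
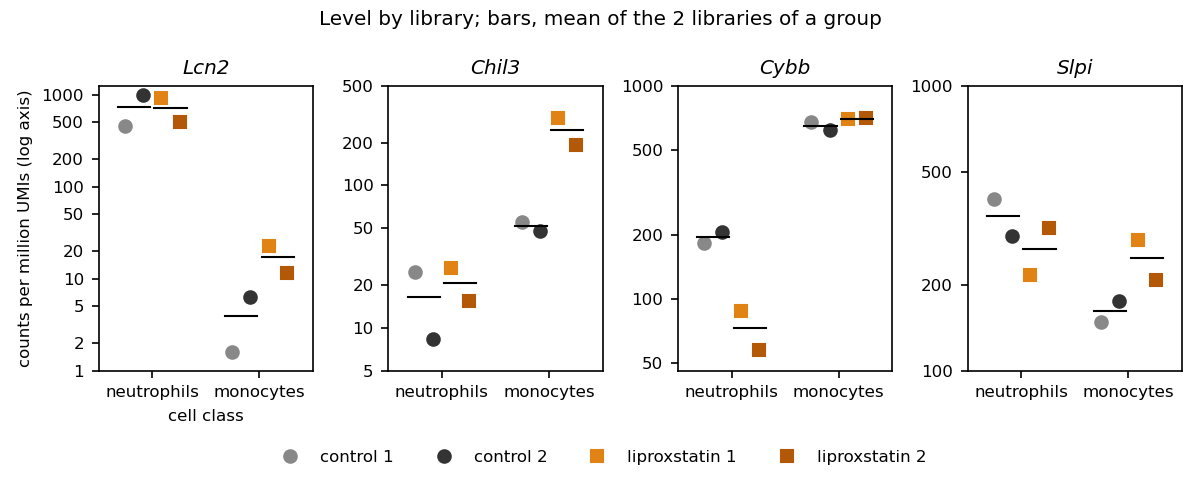
Level of Lcn2, Chil3, Cybb and Slpi (CPM, log axis) in neutrophils and monocytes of each library (points); horizontal bars are the means of the 2 libraries of a group. In monocytes both liproxstatin libraries lie above both controls in each panel, by little for Cybb, and in neutrophils only Cybb keeps the groups apart.

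How the genes were shared out among single neutrophils was read after each cell had been thinned to 2000 UMIs, which kept 1162 cells. In every library 18 of the 34 genes were found in at least 20% of neutrophils, and 13 were found in under 10% in every library. Mxd1 was found in 87.6% to 95.3% of neutrophils, G0s2 in 85.5% to 91.8% and Hdc in 75.8% to 94.7%, lowest in control replicate 2, and in T cells of the same libraries Mxd1 in 6.42% to 15.6%, G0s2 in 0.583% to 1.68% and Hdc in 0.632% to 1.30%. Retnlg split the cells, with a UMI in 38.2%, 47.5%, 50.8% and 51.8% of them, and Lcn2 was found in 26.3%, 45.1%, 47.3% and 29.4%. Unthinned, Retnlg was found in 43.6%, 54.5%, 58.1% and 53.7% and Lcn2 in 33.3%, 52.2%, 54.7% and 34.8%.

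Neutrophils with a Retnlg UMI more often had a UMI of Ly6g, Mmp8, Lcn2 and Padi4. Ly6g was found in 10.3%, 13%, 4.24% and 6.85% of neutrophils with Retnlg and in 0%, 0%, 0.437% and 0.735% of those without. Mmp8 was found in 41.4%, 27.3%, 30.1% and 26.7% against 2.13%, 12.4%, 14.4% and 7.35%. Lcn2 was found in 34.5%, 55.3%, 61.0% and 37.0% against 21.3%, 36.0%, 33.2% and 21.3%. Padi4 was found in 3.45%, 6.83%, 8.90% and 4.79% against 2.13%, 1.69%, 2.62% and 1.47%. The Padi4 shares rest on few cells, 1 of 29 against 1 of 47 in control replicate 1 and 7 of 146 against 2 of 136 in liproxstatin replicate 2. The detection of 10 of 33 genes was higher among Retnlg-positive cells in all 4 libraries. S100a9, which the gate selects on, is among the 10. The share of all genes that behaved so was not counted. Detection of 1 of the 33 was lower in all 4 libraries. That one was Cybb, at 0%, 5.59%, 6.36% and 4.11% against 14.9%, 7.30%, 7.42% and 5.15%. Cells of 1 library are not replicates, and these shares carry no test.

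**Figure D4:**
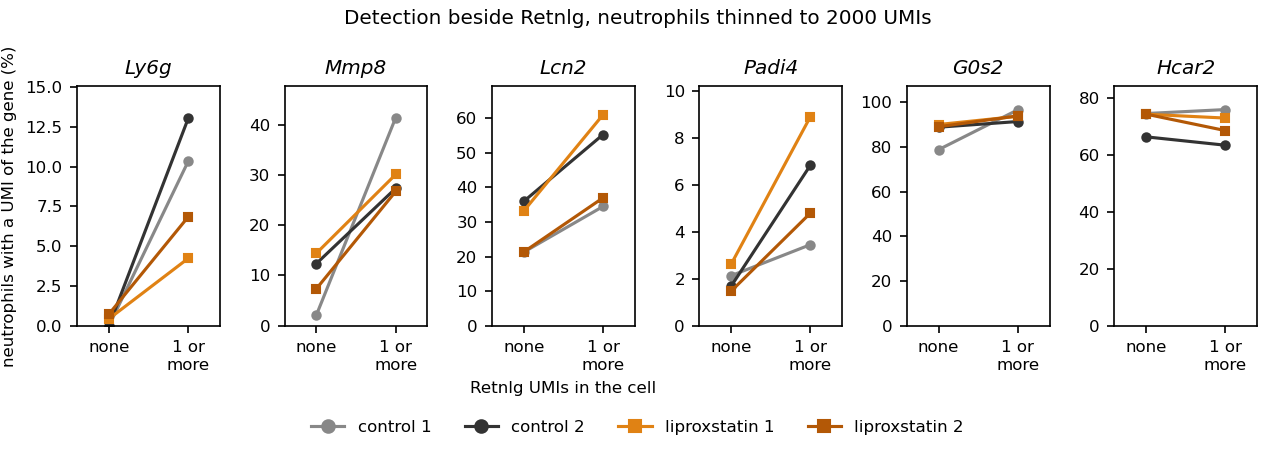
Share of neutrophils with a UMI of each of 6 genes (y axes, percent, each from 0) among cells with no Retnlg UMI and with 1 or more, one line per library, after thinning to 2000 UMIs. The lines rise steeply for Ly6g and Mmp8 in all 4 libraries and are nearly level for Hcar2.

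Over cells within a library, and averaged over the 4 libraries, the rank correlation of UMIs was highest for S100a8 and S100a9 (Spearman's rho 0.81), which the gate selects on. Among pairs without a gene of the gate the stefin pairs were highest, Stfa2l1 with Cstdc4 (0.50, from 0.42 to 0.58), Stfa2l1 with Cstdc5 (0.38) and Cstdc4 with Cstdc5 (0.36), whose shared sequence could also move reads between them. Hcar2 went with Il1f9 (0.29) and Lcn2 with Retnlg (0.26). Hcar2 ran against Cyba (-0.27, from -0.34 to -0.18) and Slpi (-0.21). Of 153 pairs 8 had a mean above 0.3, of which 5 hold S100a8 or S100a9 and the other 3 are the stefin pairs, and 3 had a mean below -0.2. Cells share the library and the fixed depth, and the values are descriptions.

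Gated neutrophils made up 2.08%, 5.69%, 6.51% and 4.01% of kept cells. The means were 3.88% ± 2.55 (SD, n = 2) and 5.26% ± 1.77, a difference of 1.38 percentage points with a two-sided exact permutation p of 0.667. No p below 0.33 can be reached with 2 against 2 libraries.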

How the data were processed

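Single-cell RNA was measured in 4 libraries of CD45-selected cells from CT26 tumours, 2 control and 2 liproxstatin, prepared with a 10x Genomics protocol per the labels' protocols. The deposited values are UMI counts per gene and barcode, not normalized, per the file headers. Cell Ranger 6.1.1 stands in the headers, but version 4, with build mm10, in the submitters' processing notes. Libraries held 83129874 to 168597163 UMIs and 4138 to 9299 barcodes. A lower depth, as in the neutrophils of control replicate 1, widens the counting error of each value.

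Cells with at least 200 genes and under 15% mitochondrial UMIs were kept, and the cells with the highest Scrublet scores (scanpy 1.11.5, Python 3.11.15) were removed as doublets at 0.8% per 1000 barcodes, leaving 25682 of 29092. Monocytes had at least 1 Csf1r UMI, 10 or more UMIs per 10000 of Ly6c2, Ccr2, F13a1 and Vcan, fewer than 10 per 10000 of the C1q genes, under 1% of S100a8 and S100a9, and fewer than 2 per 10000 of lymphoid and dendritic genes. Macrophages had C1q genes at 10 or more per 10000, and T cells at least 2 Cd3 UMIs and few myeloid ones. Counts were summed per library and class and scaled to CPM, and tested with edgeR 4.0.16 (R 4.3.3; filterByExpr, TMM, robust quasi-likelihood F test, Benjamini-Hochberg over all tested genes, threshold 0.05). Treatment fits had no block, and class fits had the library as a block. Each SE was taken as the size of the fold change over the root of its F statistic. The fits were tested on simulated data.

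Alternatives were DESeq2 1.42.0, other scalings, filters and gates, and leaving out each library. All 34 genes are named. Of other lists, genes that passed were named, at most 6 per list and comparison by size of fold change, with oxidase partners and class markers by level. Some genes of these lists are not reported here. The members and lists were chosen with earlier results of these data known. Positions are from GENCODE M21 (GRCm38, the assembly of mm10) and promoters from RefSeq.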

Additional observations from a re-analysis of the deposited data

Results flagged for a closer look

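For 3 genes the response to liproxstatin-1 differed between neutrophils and monocytes by the interaction test (edgeR, Benjamini-Hochberg): Lcn2 by a log2 difference of -2.11, Cybb by -1.49 and Slpi by -0.92, each lower in neutrophils. The difference for Lcn2 was called in all 17 alternatives run, that for Cybb in 10 and that for Slpi in 6. A group had 2 libraries, so none could be examined for a value far from the rest.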

How the results depend on the processing

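Members that passed in neither fit were counted as unchanged whatever their sign, which covered 114 sign changes. Each member's call was then the same in 389 of 405 alternatives for treatment in neutrophils, 272 of 292 in monocytes, 429 of 442 between the classes and 444 of 471 for the interaction. Both sign changes of called members were between the classes, Ncf4 at -0.16 with library size alone and Cebpe at 0.036 with doublets kept. The counts over all genes moved far more. For treatment in neutrophils 17 genes were called, against 7 by DESeq2, 88 with no filter, 3 with a gate of 2%, 0 with doublets kept, equal cells, a gate of 0.5%, the receptor gate or monocyte genes removed, and 18 to 398 with each library left out (398 without control replicate 1). For treatment in monocytes 6 were called, against 65 by DESeq2, 24 with library size alone, 350 with no filter, 66 with equal cells, 19 and 23 with monocyte gates of 5 and 20 per 10000, and 17 to 388 with each library left out (388 without control replicate 1). For the interaction 54 were called, against 7 by DESeq2, 14 with doublets kept, 33 with equal cells, 20 and 27 with neutrophil gates of 0.5% and 2%, 1 with the receptor gate, 19 with the monocyte gate of 20, and 12 to 211 with each library left out (211 without control replicate 1). Between the classes the count stayed within 4790 to 7758 of 6784. With library size alone the split of treatment calls was 9 higher and 11 lower in neutrophils, in place of 12 and 5, and 11 and 13 in monocytes, in place of 4 and 2. The cause of these moves was not tested.

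The replicate numbers did not pair the samples: deviations of samples with the same number correlated at -0.0054 in neutrophils and -0.00044 in monocytes. With the number as a replicate block 81 genes were called in neutrophils and 53 in monocytes, and among the members the block added Chil3 in monocytes (2.28, adjusted p = 0.00030, edgeR) and kept Cybb in neutrophils. The share of neutrophils differed by 1.03 to 1.83 percentage points over 6 alternatives, with an exact permutation p of 0.667 in each. Genes found in at least 20% of neutrophils in every library numbered 16 at 1000 UMIs and 21 without thinning, in place of 18. The 78 neutrophils of control replicate 1 limit the precision of every value that uses them.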

Other observations

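In the T cell gate Ctsg, cathepsin G, stood at 6.46, 4.46, 13.9 and 9.99 CPM, from 3, 10, 17 and 13 cells, against 0, 6.37, 0 and 1.03 CPM in neutrophils. Hdc was at 7.25, 14.6, 18.6 and 23.5 CPM in that gate, with the 10 richest cells holding 100%, 94.5%, 84.7% and 78.0% of its UMIs. The secreted gene Wfdc17 in macrophages was at 1439, 1109, 864 and 812 CPM, lower in both liproxstatin libraries than in both controls, a difference that was not tested.

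Mxd1 was lowest in control replicate 2 in each of the 4 classes. It stood there at 1636 CPM in neutrophils, 139 in monocytes, 22.6 in macrophages and 28.8 in T cells, against 2208 or more, 270 or more, 60.0 or more and 62.5 or more in the other libraries.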
